A study of Mus musculus with 19 samples.

Results

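The expression of 10 genes that mark T cells was followed through the skin of 19 mice: the CD3 chain genes Cd3d, Cd3e and Cd3g, the coreceptor gene Cd4, the surface receptor genes Cd2, Cd5 and Thy1, the kinase gene Lck, and the pair Foxp3 and Il2ra that mark regulatory T cells. The members were taken by gene symbol from a table of 50686 genes. All 10 were found there, and all 10 were among the 16350 genes that passed the filter of 1 TPM (a read share corrected for transcript length and library size) in at least 3 mice. In Scl-cGVHD, a chronic graft-versus-host disease with hardened skin, irradiated (800 cGy) female BALB/c mice received T cell-depleted bone marrow and splenocytes of male B10.D2 donors, while syngeneic controls received the same graft of male BALB/c donors. From day 7 to day 35 the mice were injected intraperitoneally with a monoclonal antibody (mAb) against CX3CL1, a chemokine of endothelial cells, or with control IgG, and whole skin was taken on day 42 for RNA sequencing. The 5 groups were Scl-cGVHD mice given control IgG (3 mice), Scl-cGVHD mice given 0.5 mg (3 mice) or 1 mg (5 mice) of the mAb, syngeneic mice given the mAb (5 mice, dose not stated in their labels) and syngeneic mice given control IgG (3 mice). All mice were irradiated and transplanted at 8 to 12 weeks of age, so no untreated skin stands beside them, and the donor strain and the disease cannot be told apart.

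A T cell senses antigen through its receptor, whose variable chains carry no signalling domain of their own and depend on the invariant CD3 chains to pass the signal on. LCK, a kinase that binds the tails of the coreceptors CD4 and CD8, phosphorylates the CD3 chains and so starts the cascade, while CD2 strengthens adhesion to the partner cell and CD5 damps the signal. Regulatory T cells, a subset of CD4+ T cells that is common in mouse skin around hair follicles, depend on the transcription factor FOXP3 and carry IL2RA, the alpha chain of the high-affinity IL-2 receptor. Mouse epidermis also holds resident gamma delta T cells that carry CD3 and THY1 but neither CD4 nor CD8.

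The libraries held 20325491 to 35005382 uniquely mapped read pairs (median 26198028). At these depths 1 TPM corresponded to about 12.2 to 28.2 read pairs for Cd3g and 51.3 to 119 for Foxp3, so the lowest Foxp3 value of the series, 0.12 TPM, rested on few read pairs. Across all genes the Scl-cGVHD skin had more genes lower than higher: between the IgG groups 1118 genes were called higher and 2925 lower, and the median gene had a log2 fold change of -0.33. The median-ratio, trimmed-mean and quantile scalings brought this median to -0.01, 0.00 and -0.06, and with median-ratio factors 1805 genes were higher and 1707 lower, so a member's change is also to be read against the median. Mice ID_1533 and ID_1534 (syngeneic, mAb) stood apart by high hair keratin levels and ID_1540 (Scl-cGVHD, 0.5 mg) by fibroblast markers near the syngeneic level. The counts of members were therefore repeated without these 3 mice, a choice made after seeing the data. None of the 3 is an IgG mouse, so this run touches the IgG comparison only through the filter and the shared estimate of the spread. ID_1537 (Scl-cGVHD, IgG) was unusual as well, with 292.62 TPM of the keratinocyte gene Krt10 (at least 1202.03 TPM in every other mouse). Its macrophage marker Itgam had 121.65 TPM (at most 37.85 TPM elsewhere). It was left out only in the runs without 1 mouse.

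Over all mice each of the CD3 chains was higher in Scl-cGVHD skin, most of all Cd3d, which encodes the delta chain. Cd3d had 15.75, 3.01 and 10.66 TPM in Scl-cGVHD IgG mice, against 1.25, 1.48 and 1.00 TPM in syngeneic IgG mice. Among mAb-treated mice it had 8.14, 5.99, 10.15, 6.78 and 3.64 TPM in Scl-cGVHD mice at 1 mg, against 0.90, 2.64, 1.19, 0.67 and 1.63 TPM in syngeneic mice, and the 0.5 mg mice had 8.75, 2.52 and 5.07 TPM. Each Scl-cGVHD mouse but ID_1540 at 0.5 mg lay above each syngeneic mouse. The log2 fold change (limma on log2(TPM + 1), standard error in parentheses, p adjusted over all 16350 genes) was 2.04 (0.46, adjusted p = 0.0063) between the IgG groups and 1.72 (0.36, adjusted p = 0.0020) between the 1 mg and syngeneic mAb groups, which share no mice. In bulk skin, a difference in the number of T cells and a difference in RNA per T cell cannot be told apart.

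Cd3e, the epsilon chain gene, had 24.26, 6.06 and 15.65 TPM in Scl-cGVHD IgG mice, against 4.76, 4.88 and 3.69 TPM in syngeneic IgG mice. The groups did not overlap, and the log2 fold change was 1.41 (0.43, adjusted p = 0.0272). Between the mAb-treated groups it had 10.64, 12.56, 16.50, 10.49 and 4.38 TPM at 1 mg, against 7.61, 5.65, 5.95, 2.65 and 5.60 TPM in syngeneic mice, a difference of 0.83 (0.34) that missed the threshold (adjusted p = 0.0615). ID_1546 lay inside the syngeneic range, and without that mouse the difference was 1.09 (adjusted p = 0.0159). It also passed with each of the 3 other scalings (1.15 to 1.22). The Cd3e call between the IgG groups was in turn lost without any one of ID_1527, ID_1528, ID_1529, ID_1535 or ID_1538 (adjusted p 0.0593 to 0.114).

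Cd3g, the gamma chain gene, was the most abundant CD3 chain per length. It had 38.13, 8.92 and 30.60 TPM in Scl-cGVHD IgG mice, against 10.97, 8.99 and 9.38 TPM in syngeneic IgG mice, so that ID_1537 lay below all 3 syngeneic mice. With this mouse the difference of 1.10 (0.45) did not pass (adjusted p = 0.0820), and without it the difference was 1.71 (adjusted p = 0.0123). At 1 mg Cd3g had 22.24, 26.28, 24.98, 19.65 and 9.49 TPM, against 8.94, 15.21, 10.26, 5.48 and 8.49 TPM in mAb-treated syngeneic mice, a log2 fold change of 1.00 (0.35, adjusted p = 0.0348). That call was lost without any one of ID_1530, ID_1533, ID_1534, ID_1542, ID_1543, ID_1544 or ID_1545 (adjusted p 0.0568 to 0.0842).

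Summed over the chains, CD3 spread widely among the Scl-cGVHD IgG mice, with 78.14 TPM in ID_1535, 17.99 TPM in ID_1537 and 56.91 TPM in ID_1538. The 1 mg mice had 41.02, 44.83, 51.63, 36.92 and 17.51 TPM and the 0.5 mg mice 41.03, 21.82 and 35.52 TPM, while syngeneic mice had 8.80 to 23.50 TPM with the mAb and 14.07 to 16.98 TPM with IgG. ID_1537, ID_1540 and ID_1546 thus lay within the syngeneic range in 3 different Scl-cGVHD groups. The plot of all members by mouse shows where these mice lay for the others.

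**Figure D1:**
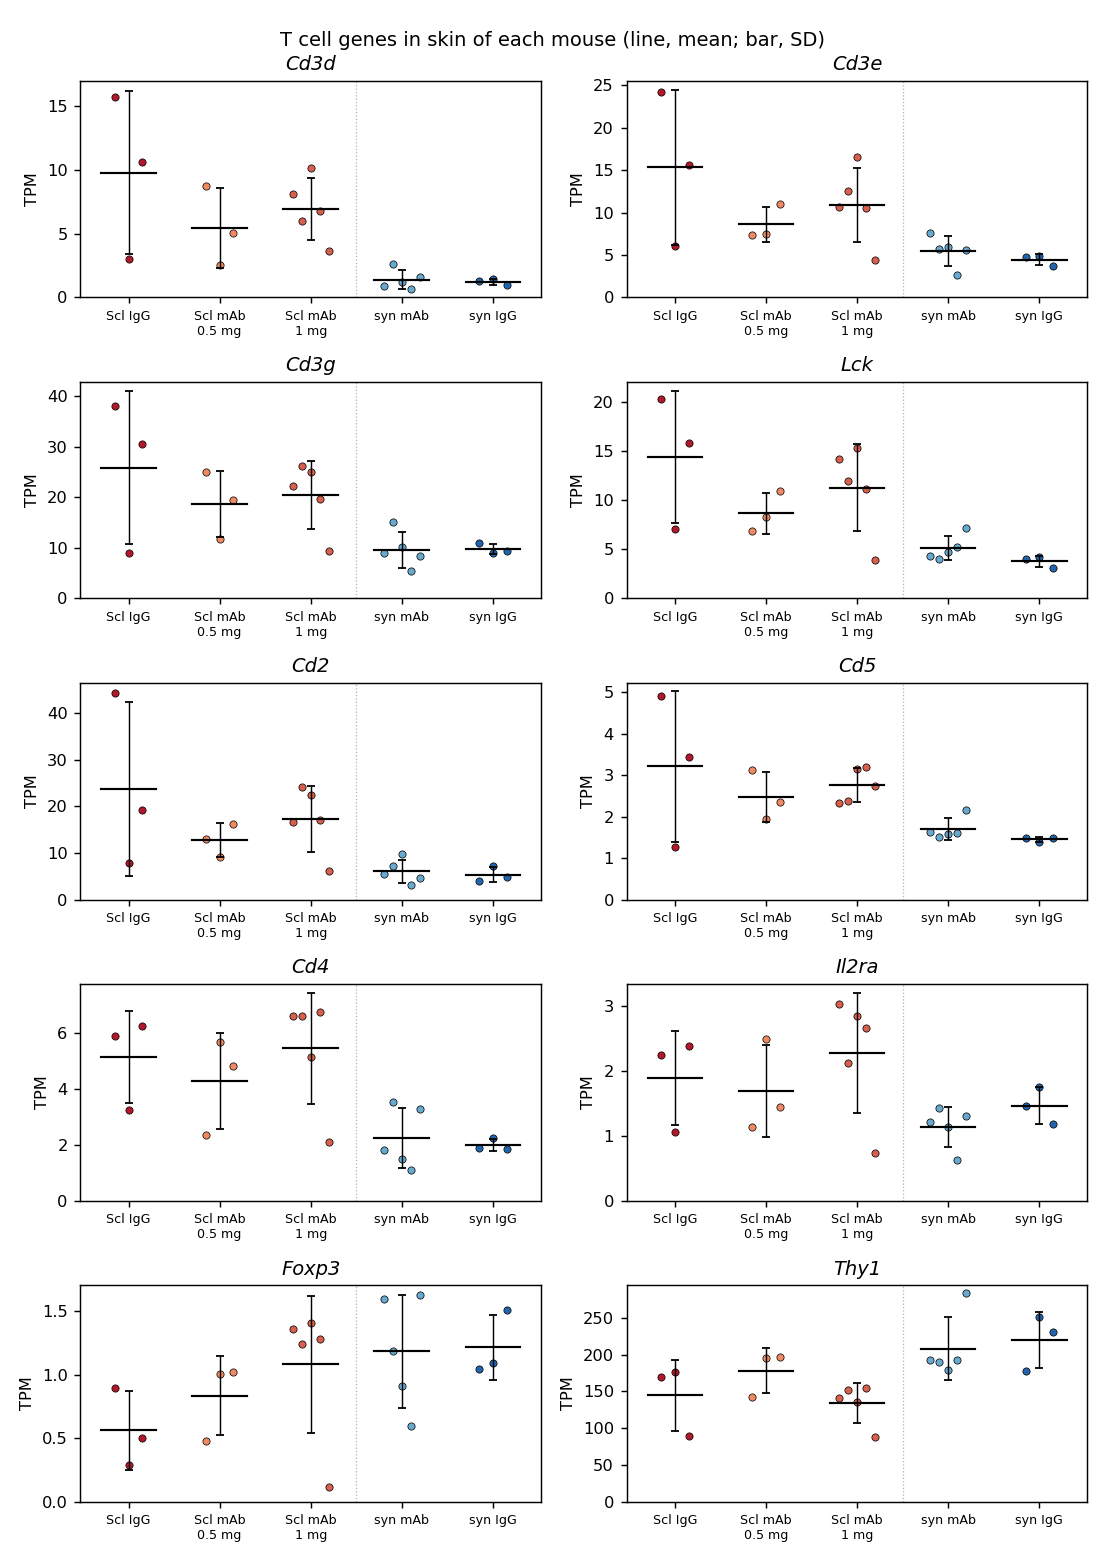
Level of each of the 10 genes (TPM, one panel a gene) in every mouse of the 5 groups, with the group mean as a line and the SD as a bar. Cd3d, Cd3e, Cd3g, Cd2 and Lck are high and widely spread in Scl-cGVHD mice (Cd3d 3.01 to 15.75 TPM with IgG), Foxp3 lies lowest in Scl-cGVHD IgG mice (0.29 to 0.90 TPM) and Thy1 is on a far higher scale (87.73 to 284.26 TPM).

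The start regions of the genes that moved together are shown here because the CD3 genes lie side by side on chromosome 9 (GRCm38): Cd3g at chr9:44969572-44980431 on the minus strand, Cd3d at chr9:44981786-44987339 on the plus strand and Cd3e at chr9:44998740-45009627 on the minus strand. Foxp3, at chrX:7579676-7595243 on the plus strand, is shown beside them as a member that was not called higher. RefSeq (GRCm38.p6) gave windows of 250 bases before and 50 after a start for 7 of the 10 members, 9 windows in all, with more than 1 start for Foxp3 and for Lck. Capitals mark matches, on either strand, to the core letters of an ETS motif (AGGAAG), a TCF motif (CTTTGA), a RUNX motif (TGTGGT) or an E-box (CAGCTG). The windows are Cd3d at chr9:44981536-44981835 (plus strand), Cd3e at chr9:45009562-45009861 (minus), Cd3g at chr9:44980382-44980681 (minus) and the upstream Foxp3 window at chrX:7579426-7579725 (plus).
Cd3d: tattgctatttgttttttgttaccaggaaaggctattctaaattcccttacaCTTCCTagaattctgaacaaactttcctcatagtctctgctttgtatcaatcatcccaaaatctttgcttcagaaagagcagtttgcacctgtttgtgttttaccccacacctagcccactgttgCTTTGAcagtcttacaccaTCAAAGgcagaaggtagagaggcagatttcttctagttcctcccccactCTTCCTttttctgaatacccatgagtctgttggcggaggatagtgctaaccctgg
Cd3e: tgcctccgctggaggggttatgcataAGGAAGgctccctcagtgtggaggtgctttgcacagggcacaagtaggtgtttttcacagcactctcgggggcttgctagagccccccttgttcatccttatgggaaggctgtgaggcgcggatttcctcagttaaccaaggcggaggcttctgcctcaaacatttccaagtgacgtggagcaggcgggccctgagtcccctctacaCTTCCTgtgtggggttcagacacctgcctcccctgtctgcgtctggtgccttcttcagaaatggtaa
Cd3g: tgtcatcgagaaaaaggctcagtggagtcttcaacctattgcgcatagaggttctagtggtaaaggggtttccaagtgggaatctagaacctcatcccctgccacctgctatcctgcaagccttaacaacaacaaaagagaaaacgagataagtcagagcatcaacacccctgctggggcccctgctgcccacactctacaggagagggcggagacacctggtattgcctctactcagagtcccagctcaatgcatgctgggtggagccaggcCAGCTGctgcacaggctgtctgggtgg
Foxp3: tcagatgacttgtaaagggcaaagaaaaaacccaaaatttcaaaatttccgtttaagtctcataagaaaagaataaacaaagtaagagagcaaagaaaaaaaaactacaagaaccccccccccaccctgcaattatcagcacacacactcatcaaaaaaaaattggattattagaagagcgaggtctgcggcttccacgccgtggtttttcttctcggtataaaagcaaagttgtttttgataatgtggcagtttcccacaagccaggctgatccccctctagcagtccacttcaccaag

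The Cd3d window held 2 ETS and 2 TCF matches, the Cd3e window 2 ETS matches and the Cd3g window 1 E-box, with no overlap between matches, and the upstream Foxp3 window held none of the 4. The other Foxp3 window, at chrX:7580233-7580532, held 1 ETS match and 1 E-box. Over all members, 7 of 9 windows held the ETS letters, 2 the E-box, 1 the TCF letters and 1 the RUNX letters. Of 32851 mouse windows of the same length, 35.4% held the ETS letters, 16.3% the E-box, 16.0% the TCF letters and 16.8% the RUNX letters. A match is a description of the letters in the window and not a binding site.

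Lck, the kinase that starts receptor signalling, had 20.26, 7.05 and 15.78 TPM in Scl-cGVHD IgG mice, against 3.97, 4.23 and 3.14 TPM in syngeneic IgG mice. At 1 mg it had 14.12, 11.92, 15.32, 11.12 and 3.87 TPM, against 4.35, 4.05, 4.77, 5.21 and 7.17 TPM in mAb-treated syngeneic mice. Each Scl-cGVHD IgG mouse lay above each syngeneic IgG mouse, whereas at 1 mg the groups overlapped through ID_1546. The log2 fold change between the means of the IgG groups was 1.58 (0.39, adjusted p = 0.0102). The 1 mg difference was 0.91 (0.31, adjusted p = 0.0277), and it missed the threshold without any one of ID_1530, ID_1531, ID_1532, ID_1542, ID_1544 or ID_1545 (adjusted p at most 0.0756).

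Cd2, an adhesion receptor of T and NK cells that mouse B cells also carry, had 44.42, 7.85 and 19.23 TPM in Scl-cGVHD IgG mice, against 3.98, 7.15 and 4.93 TPM in syngeneic IgG mice. At 1 mg it had 16.56, 24.27, 22.48, 17.08 and 6.12 TPM, against 5.46, 7.21, 9.70, 3.14 and 4.70 TPM in mAb-treated syngeneic mice. The IgG groups were apart by only the gap between 7.85 and 7.15 TPM, and the log2 fold change was 1.69 (0.52, adjusted p = 0.0261). It was 1.33 (0.40, adjusted p = 0.0169) at 1 mg. The IgG call was lost without any one of ID_1527, ID_1529, ID_1535 or ID_1538 (adjusted p 0.0619 to 0.118). The highest syngeneic level, 9.70 TPM in ID_1532, came from the mouse with the highest level of the B cell gene Cd79a (7.27 TPM, against at most 0.23 TPM in every other syngeneic mouse), whose part in the Cd2 level was not tested.

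Cd5, the inhibitory receptor, had 4.90, 1.28 and 3.45 TPM in Scl-cGVHD IgG mice, against 1.49, 1.39 and 1.49 TPM in syngeneic IgG mice, and ID_1537 again lay below the controls. The difference was 0.67 (0.26, adjusted p = 0.0689), and 1.06 (adjusted p = 0.0062) without ID_1537. At 1 mg Cd5 had 2.32, 2.38, 3.16, 3.19 and 2.73 TPM, all above the 1.63, 1.52, 1.57, 1.60 and 2.17 TPM of mAb-treated syngeneic mice, and the log2 fold change of 0.48 (0.20) had an adjusted p of 0.0747. It passed without ID_1535 (adjusted p = 0.0447) or ID_1537 (adjusted p = 0.0191), mice that enter this value only through the shared estimate of the spread, with the compared groups only (adjusted p = 0.0266) and with each of the 3 other scalings (0.73 to 0.82).

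Cd4, the coreceptor for MHC class II, had 5.92, 3.25 and 6.26 TPM in Scl-cGVHD IgG mice, against 1.88, 2.24 and 1.84 TPM in syngeneic IgG mice. At 1 mg it had 6.63, 6.62, 5.17, 6.78 and 2.12 TPM, against 1.83, 3.54, 1.5, 1.10 and 3.27 TPM in mAb-treated syngeneic mice. The IgG groups did not overlap but their difference of 1.00 (0.38) missed the threshold (adjusted p = 0.0586), which it passed with each of the 3 other scalings (1.28 to 1.36). It also passed without ID_1539 (adjusted p = 0.0425) or ID_1546 (adjusted p = 0.0271). These mice are in neither IgG group, so the difference stayed at 1.00 and only the filter and the shared estimate of the spread changed. The 1 mg difference, 0.98 (0.29), passed (adjusted p = 0.0152). CD8, the coreceptor for MHC class I, was almost unread in control skin: Cd8a plus Cd8b1 summed to 21.35, 6.0 and 18.85 TPM in Scl-cGVHD IgG mice and at most 0.86 TPM in any syngeneic mouse. Cd8b1 was higher by 2.80 (0.41, adjusted p = 0.0005) between the IgG groups and by 2.54 at 1 mg against syngeneic mAb, and Cd8a by 2.40 (0.36, adjusted p = 0.0006) and 2.32.

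**Figure D2:**
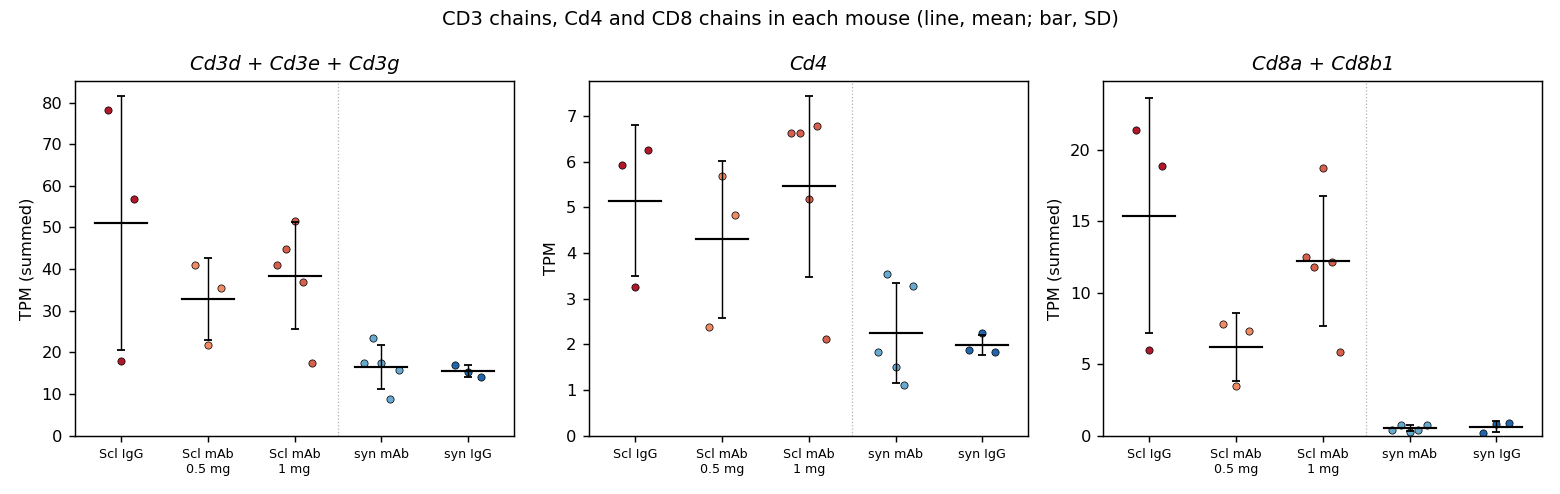
Summed TPM of the CD3 chains, of Cd4 and of the CD8 chains in each mouse of the 5 groups, with the group mean as a line and the SD as a bar. CD8 is at most 0.86 TPM in syngeneic mice and reaches 21.35 TPM in an Scl-cGVHD IgG mouse, while Cd4 reaches 6.78 TPM in an Scl-cGVHD mouse and 3.54 TPM in a syngeneic one.

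Il2ra was not called in either comparison. It had 2.25, 1.06 and 2.38 TPM in Scl-cGVHD IgG mice, against 1.46, 1.76 and 1.18 TPM in syngeneic IgG mice, and 3.03, 2.12, 2.85, 2.67 and 0.74 TPM at 1 mg, against 1.21, 1.43, 1.14, 0.62 and 1.30 TPM in mAb-treated syngeneic mice. The groups overlapped in both, with differences of 0.20 (0.30, adjusted p = 0.618) and 0.57 (0.23, adjusted p = 0.0618). Without ID_1546 the 1 mg difference was 0.78 (adjusted p = 0.0077), and with each of the 3 other scalings it also passed (0.77 to 0.86).

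Foxp3 was not called either, and its lowest group was Scl-cGVHD with IgG. It had 0.90, 0.29 and 0.50 TPM in Scl-cGVHD IgG mice, against 1.05, 1.09 and 1.51 TPM in syngeneic IgG mice, and 1.36, 1.24, 1.41, 1.28 and 0.12 TPM at 1 mg, against 1.60, 1.19, 0.91, 0.60 and 1.63 TPM in mAb-treated syngeneic mice. The IgG groups did not overlap and the 1 mg groups did. Neither difference passed: -0.52 (0.28, adjusted p = 0.180) between the IgG groups and -0.10 (0.22, adjusted p = 0.735) at 1 mg, where the 3 other scalings gave values just above 0 (0.05 to 0.16). At levels near 1 TPM the pseudocount of 1 shrinks these values.

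Thy1, the classical T cell antigen of the mouse that fibroblasts and neurons also carry, had 168.91, 175.82 and 89.23 TPM in Scl-cGVHD IgG mice, against 177.28, 250.45 and 231.18 TPM in syngeneic IgG mice. At 1 mg it had 140.32, 151.29, 135.49, 155.21 and 87.73 TPM, against 193.05, 190.03, 179.45, 192.90 and 284.26 TPM in mAb-treated syngeneic mice. Each Scl-cGVHD mouse was below each syngeneic mouse in both comparisons, with differences of -0.65 (0.26, adjusted p = 0.0794) and -0.64 (0.20, adjusted p = 0.0230). With median-ratio factors the 1 mg difference was -0.26 (adjusted p = 0.332) and with trimmed-mean factors -0.25 (adjusted p = 0.342), and it also missed the threshold without ID_1534 (adjusted p = 0.0575) or ID_1546 (adjusted p = 0.0678). Per length, Thy1 exceeded the next most abundant member in every mouse, and its level in the syngeneic mice, 177.28 to 284.26 TPM, stood beside a CD3 sum of 8.80 to 23.50 TPM. Of the 9 fibroblast markers, led by the collagen genes Col1a1, Col1a2 and Col3a1, 7 were lower between the IgG groups (17.9% of all genes) and 8 at 1 mg (28.3%). Their median log2 fold change was -3.21 between the IgG groups, a far larger fall than that of Thy1. With median-ratio factors 7 of 9 stayed lower at 1 mg (median -2.44). Summed levels were 302 to 2591 TPM in Scl-cGVHD IgG mice, 369 to 7843 TPM at 0.5 mg and 253 to 1143 TPM at 1 mg. Syngeneic mice had 4012 to 12047 TPM with the mAb and 6863 to 10870 TPM with IgG. The part of fibroblasts in the Thy1 difference was not tested.

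Counted over the members, 4 of 10 were higher (Cd3d, Lck, Cd2 and Cd3e) and none lower between the IgG groups, where 6.84% of all genes tested were higher and 17.9% lower. In the same comparison 5 members were higher in each Scl-cGVHD mouse (10.4% of genes) and 2, Foxp3 and Thy1, lower in each (41.0% of genes). Between the 1 mg and syngeneic mAb groups, 5 members were higher (Cd3d, Cd4, Cd2, Lck and Cd3g; background 7.99%) and Thy1 was lower (background 28.3%). There, Cd3d and Cd5 were higher in each mouse (background 5.96%) and Thy1 lower in each (background 20.6%). The median log2 fold change of the members was 1.05 between the IgG groups, beside -0.33 over all genes, and 0.87 at 1 mg, beside -0.32. Without the 3 mice that stood apart the numbers called were 5 between the IgG groups and 3 at 1 mg, where Cd3g, Cd2 and Thy1 were lost.

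Over all 11 Scl-cGVHD and 8 syngeneic mice, which pools the doses and the treatments above, 7 members were higher (background 10.5%) and 1, Thy1, lower (background 43.7%). Cd3d led with a log2 fold change of 1.72 (0.27, adjusted p = 0.0001), followed by Cd2 at 1.36 (0.30, adjusted p = 0.0016), Lck at 1.11 (0.23, adjusted p = 0.0010), Cd3g at 0.99, Cd3e at 0.98, Cd4 at 0.91 and Cd5 at 0.52 (adjusted p 0.0028 to 0.0097). Thy1 was lower by 0.51 (0.15, adjusted p = 0.0108) as deposited, but its difference was -0.13 with median-ratio factors (adjusted p = 0.493) and -0.13 with trimmed-mean factors (adjusted p = 0.510). Il2ra (0.33, adjusted p = 0.120) and Foxp3 (-0.29, adjusted p = 0.142) were not called, although Il2ra passed without ID_1546 (0.40, adjusted p = 0.0262) and with each of the 3 other scalings. In no member did the 11 Scl-cGVHD mice lie wholly above or below the 8 syngeneic mice, where 1.90% of all genes were higher and 5.63% lower in each mouse.

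**Figure D3:**
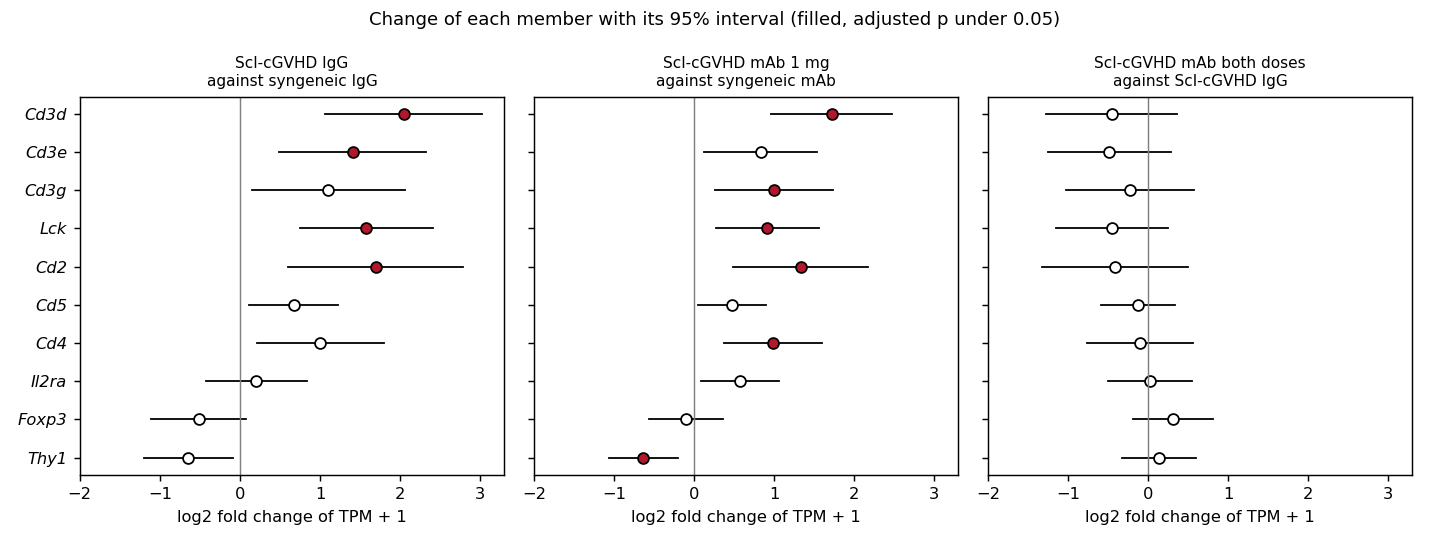
Log2 fold change of each member, with its 95% confidence interval from limma, in the comparisons of Scl-cGVHD with syngeneic skin and of mAb with IgG. Cd3d is farthest above 0 between Scl-cGVHD and syngeneic skin (2.04 between the IgG groups), Thy1 and Foxp3 lie below 0 there, and each interval of mAb against IgG crosses 0.

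Relating each member to Cd3e within the same mouse removes the scaling of the library and asks how a gene stands against one pan-T cell transcript. Foxp3 differed most. Per 100 TPM of Cd3e, Foxp3 had 3.71, 4.79 and 3.20 TPM in Scl-cGVHD IgG mice, 6.55, 13.5 and 9.26 TPM at 0.5 mg and 12.8, 9.87, 8.55, 12.2 and 2.74 TPM at 1 mg, against 21.0, 21.1, 15.3, 22.6 and 29.1 TPM in mAb-treated and 22.1, 22.3 and 40.9 TPM in IgG-treated syngeneic mice. Each of the 11 Scl-cGVHD mice lay below each of the 8 syngeneic mice. The mean log2 ratio (pseudocount 0.1 TPM) was -3.63 ± 0.70 in Scl-cGVHD and -2.0 ± 0.39 in syngeneic mice (SD), a difference of -1.63 (exact permutation test over 75582 splits, two-sided p = 2.65e-05, adjusted over the 9 ratios to Cd3e p = 0.000238). With Cd4, the gene of the cells that regulatory T cells belong to, in place of Cd3e, a choice made after seeing the data, the difference was -1.75 (exact permutation p = 1.32e-05, the smallest these splits can give). Both denominators were themselves higher over these mice (Cd3e by 0.98, Cd4 by 0.91), while the median gene was at -0.33. A gene of unchanged level thus also falls against them, and Foxp3 by itself was not called (-0.29). The share of all genes that fall as far against Cd3e was not computed.

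Other members also shifted against Cd3e between Scl-cGVHD and syngeneic mice. Thy1 stood lower by a log2 ratio of -1.60 (exact permutation p = 0.000106) and Cd3d higher by 1.2 (p = 7.94e-05, exact permutation), both with overlapping ranges. Cd2 was higher by 0.42 (exact permutation p = 0.0114, adjusted p = 0.0255), a call that leaving out single mice ended in 3 of 19 cases. The ratios of Cd3g (-0.01), Cd4 (0.12), Lck (0.13), Cd5 (-0.36) and Il2ra (-0.50, adjusted p = 0.0600) did not pass. Against Cd4, the denominator chosen after seeing the data, Il2ra did (-0.62, exact permutation p = 0.00103). Il2ra by itself was not called (0.33) while Cd4 rose by 0.91, and Thy1 by itself was at -0.51 while Cd3e rose by 0.98. The rise of each denominator thus enters these falls. For these ratios too, the share of all genes that fall as far was not computed. Between the IgG groups alone Foxp3 differed by -2.64, Thy1 by -2.21, Il2ra by -1.27 and Cd3d by 1.04, each at p = 0.1 in the exact permutation test, the smallest that 20 splits allow.

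**Figure D4:**
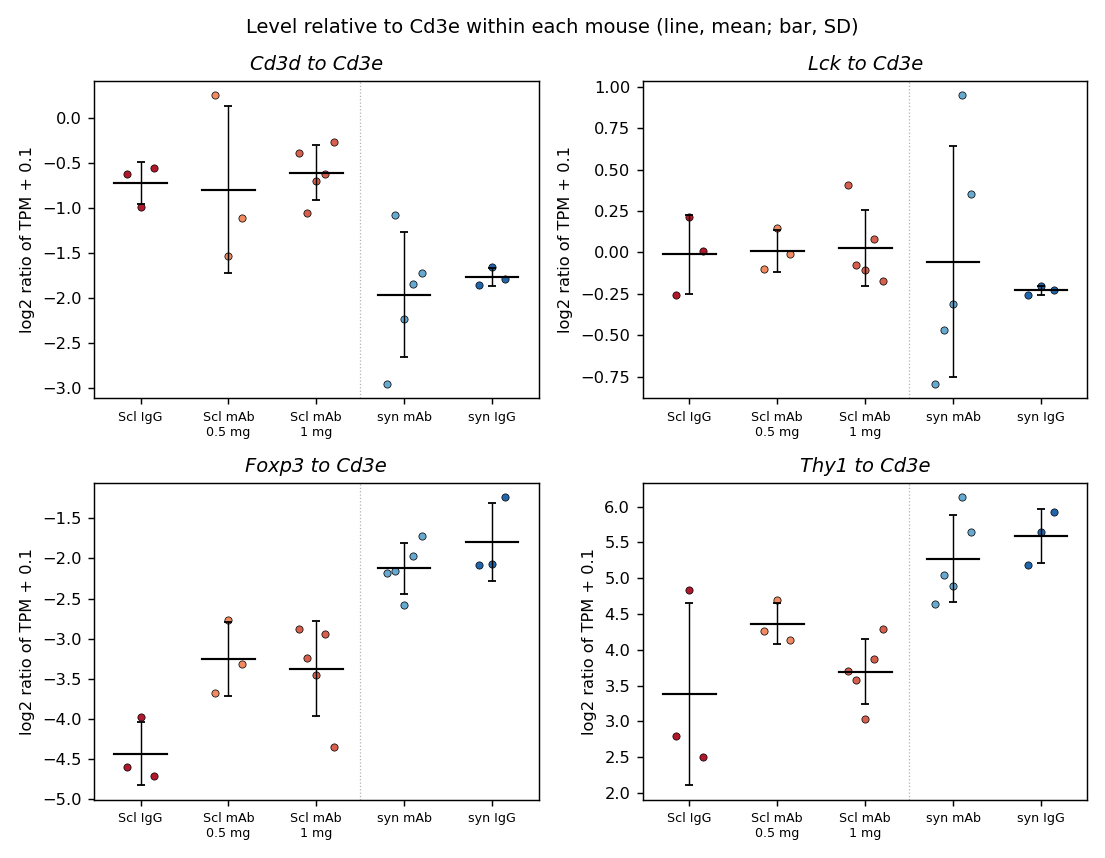
Log2 ratio of members to Cd3e within each mouse, by group, with the group mean as a line and the SD as a bar. For Foxp3 the Scl-cGVHD mice (-4.71 to -2.77) lie below the syngeneic mice (-2.58 to -1.24) without overlap, and for Thy1 the ranges (2.5 to 4.84 and 4.65 to 6.13) meet.

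No member was called between mAb-treated and IgG-treated Scl-cGVHD mice. For both doses together the log2 fold change was -0.46 for Cd3d (95% interval -1.27 to 0.36, adjusted p = 0.646), -0.49 for Cd3e (-1.25 to 0.28, adjusted p = 0.585), -0.45 for Lck (-1.15 to 0.24, adjusted p = 0.575) and -0.42 for Cd2 (-1.33 to 0.49, adjusted p = 0.724). It was -0.23 for Cd3g (-1.03 to 0.57), -0.13 for Cd5 (-0.59 to 0.34) and -0.10 for Cd4 (-0.76 to 0.56), and 0.31 for Foxp3 (-0.19 to 0.80), 0.13 for Thy1 (-0.33 to 0.60) and 0.03 for Il2ra (-0.50 to 0.55). These intervals allow a Cd3d level up to 1.27 lower on the log2 scale with the mAb, and also one 0.36 higher. By limma, 0 of 10 members were called at 0.5 mg, at 1 mg and at both doses against IgG, beside 0.0550% of all genes called at 0.5 mg and 0 at 1 mg and at both doses. At an unadjusted p under 0.05 the members were again 0 of 10 in each, beside 14.5% of all genes at 0.5 mg, 10.2% at 1 mg and 14.4% at both doses. The values of all 10 members overlapped between the groups in each of these comparisons, where 4.25% of all genes were higher and 6.88% lower in each mouse at 0.5 mg, 1.13% and 2.78% at 1 mg, and 0.434% and 1.44% at both doses. Without ID_1535, the IgG mouse with the most CD3, the both-dose difference was above 0 for Cd3g (0.15), Cd2 (0.17) and Cd5 (0.17), whereas for Cd3d, Cd3e, Lck and Foxp3 no mouse left out turned the direction.

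By dose, Cd3d averaged 9.81 ± 6.41 TPM with IgG, 5.45 ± 3.13 TPM at 0.5 mg and 6.94 ± 2.43 TPM at 1 mg (SD, n = 3, 3 and 5). Cd3e averaged 15.3 ± 9.10, 8.60 ± 2.09 and 10.9 ± 4.38 TPM, and Foxp3 0.563 ± 0.310, 0.837 ± 0.309 and 1.08 ± 0.542 TPM, in the same order. The SD of the IgG mice exceeded each of these differences for Cd3d and Cd3e. No member was called between 1 mg and 0.5 mg, between mAb-treated and IgG-treated syngeneic mice, or for the difference between the response to 1 mg in Scl-cGVHD mice and the response in syngeneic mice (0 of 10 by limma in each, beside 0 of all genes called). At an unadjusted p under 0.05 these comparisons also had 0 of 10 members, beside 5.29%, 0.703% and 3.56% of all genes. In syngeneic skin Cd5 was higher in each of the 5 mAb mice (1.52 to 2.17 TPM) than in any of the 3 IgG mice (1.39 to 1.49 TPM), where 0.398% of all genes were so placed, with a log2 fold change of 0.13 (0.24) and an adjusted p of 1.

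The ratio of Foxp3 to Cd3e was -3.33 on the log2 scale in the 8 mAb-treated and -4.43 in the 3 IgG-treated Scl-cGVHD mice, a difference of 1.11 (exact permutation test over 165 splits, p = 0.0121, adjusted over the 9 ratios p = 0.109). All mAb mice but ID_1546 lay above the IgG mice. Against Cd4, a denominator chosen after seeing the data, the difference was 0.71 and passed the threshold (exact permutation p = 0.0242, adjusted over the 2 ratios to Cd4 p = 0.0485), with overlapping groups. No other ratio to Cd3e came near the threshold (adjusted p of at least 0.482).

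Genes that act with the members in the receptor cascade were called higher as well. For these lists the background is again 6.84% of all genes higher and 17.9% lower between the IgG groups, and 7.99% higher and 28.3% lower at 1 mg. Of 23 tested TCR signalling genes, 12 were higher and 1 lower between the IgG groups (median log2 fold change 0.92), and 11 were higher and 1 lower at 1 mg against syngeneic mAb (median 0.53). Ptpn22, a phosphatase that restrains LCK, was higher by 1.91 (0.39, adjusted p = 0.0037) between the IgG groups, Zap70, the kinase that docks on phosphorylated CD3, by 1.47 (0.33, adjusted p = 0.0063), Sh2d2a, an adaptor that binds LCK, by 1.84 and Ubash3a, a suppressor of receptor signalling, by 1.05. The lower gene was Fyn (-0.91, adjusted p = 0.0300), a kinase related to LCK that many other cells also carry. Ptpn22 had 19.96, 19.99 and 16.58 TPM in ID_1535, ID_1537 and ID_1538. It thus did not follow the CD3 sum, which was only 17.99 TPM in ID_1537. Zap70, Sh2d2a and Ubash3a were lowest of these mice in ID_1537 (2.74, 2.07 and 0.77 TPM). Lcp2, Vav1 and Ptprc of the same list were highest of all mice in ID_1537 (37.24, 47.02 and 50.09 TPM). Which cells carried Ptpn22, Lcp2, Vav1 and Ptprc was not tested. Of the 7 T cell receptor constant regions tested, Trac of the alpha chain (1.30) and Tcrg-C2 of a gamma chain (1.42) were higher. Trdc of the delta chain (-0.76) and Tcrg-C1 of another gamma chain (-1.40) were lower, and quantile scaling ended these 2 calls. Near-identical constant regions make the values of the gamma chain genes uncertain.

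Genes that regulatory T cells carry beside Foxp3 and Il2ra were called in both directions. Of 13 tested, 5 were higher and 1 lower between the IgG groups, and 2 were higher at 1 mg against syngeneic mAb. With each of the 3 other scalings 7 were higher between the IgG groups and 6 at 1 mg. Tnfrsf9, a costimulatory receptor, was higher by 2.93 (0.54, adjusted p = 0.0020), Il10, an anti-inflammatory cytokine, by 2.35 (0.52, adjusted p = 0.0055) and Tigit, an inhibitory receptor, by 2.30 (0.52, adjusted p = 0.0063), while Tnfrsf18, which encodes GITR, was lower by 1.29 (0.33, adjusted p = 0.0109). Activated T cells and, for Il10, macrophages carry several of these too. Among the Scl-cGVHD IgG mice, Tnfrsf9 and Il10 were highest in ID_1537 (28.89 and 26.46 TPM), the mouse with the least CD3, and Tigit was lowest there (3.72 TPM). Of 10 genes of the IL-2 pathway tested, 3 were higher in both comparisons, between the IgG groups Il2rg, the common cytokine receptor chain, by 2.04, Il2rb, the beta chain of the IL-2 receptor, by 1.33 and Socs1, a feedback inhibitor, by 1.79. The other scalings gave 4 higher between the IgG groups and 6 at 1 mg. Of the Scl-cGVHD IgG mice, ID_1537 again had the most Il2rg and Socs1 (97.99 and 38.71 TPM), and the least Il2rb (2.95 TPM).

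Among 11 homing and memory genes tested, 6 were higher and 1 lower between the IgG groups, and 5 were higher and 2 lower at 1 mg. Cd69, an early activation and tissue retention receptor, was higher by 2.40 between the IgG groups and Cd44, a receptor for hyaluronan, by 1.24. Both were highest in ID_1537 (22.45 and 180.63 TPM), the Scl-cGVHD IgG mouse with the least CD3. Which cells carried them was not tested. Ccr4, a skin homing chemokine receptor, was lower by 2.5 (0.50, adjusted p = 0.0035). Of 13 T lineage transcription factors, 2 were higher (Ets1 by 0.92 and Ikzf3 by 0.79) and 1 lower, Gata3, which keratinocytes carry as well, with 43.14, 7.55 and 22.40 TPM in Scl-cGVHD IgG mice, against 103.76, 100.09 and 105.18 TPM in syngeneic IgG mice. At 1 mg none of these factors was higher and 2, Gata3 and Tcf7, were lower, but the other scalings gave 5 higher and none lower there, and 5 to 6 higher and 1 lower between the IgG groups. Tcf7 was highest in ID_1533 and ID_1534 (24.36 and 14.98 TPM), the syngeneic mice with high hair keratins. The other mAb-treated syngeneic mice had 7.41 to 8.51 TPM. Of the 6 tested genes of gamma delta and dendritic epidermal T cells, none was higher and 4 were lower between the IgG groups: Tcrg-V5, Trdc, Trdv4 and Sox13, of which Sox13 was lost with each of the 3 other scalings and Trdc and Trdv4 with quantile scaling, while each of the 3 also called 1 gene higher. At 1 mg the same 4 genes were lower and 1, Klrk1, an activating receptor shared with NK and CD8+ T cells, was higher by 1.16 (0.41, adjusted p = 0.0344). Tcrg-V5, the variable gene of dendritic epidermal T cells, was listed at 0 in all 3 Scl-cGVHD IgG mice and had 4.12, 1.23 and 1.75 TPM in syngeneic IgG mice. Between the mAb at both doses and IgG, 0 genes of any of these lists were called, and 0 of all genes tested. At an unadjusted p under 0.05 (limma), 14.4% of all genes passed in either direction. There 6 of 11 homing and memory genes were lower and 1 higher, and 5 of 13 regulatory T cell genes lower and 1 higher. Of 23 TCR signalling genes 4 were lower and 0 higher, and of 13 transcription factors 2 lower and 1 higher. Of 10 IL-2 pathway genes 1 was lower and 0 higher.

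Markers of other cells moved beside the T cell genes. The share of all genes between the IgG groups was again 6.84% higher and 17.9% lower. Of 9 macrophage markers, 5 were higher between the IgG groups (summed level 4228 to 9041 TPM in Scl-cGVHD IgG mice, against 1433 to 1734 TPM in syngeneic IgG mice). With median-ratio or trimmed-mean factors 8 were higher, and with quantile scaling 5. Of 7 NK cell markers 2 could be tested, and both were higher, Nkg7, which cytotoxic T cells share, by 2.53 and Klre1 by 0.96, while the NK-defining Ncr1 was at most 0.45 TPM in every Scl-cGVHD mouse, against 0.37 to 1.61 TPM in syngeneic mice. Of 6 B cell markers 3 were tested and none was called. In the same comparison 3 of 8 dendritic and Langerhans cell markers and 3 of 7 skeletal muscle markers were lower, 1 of 6 keratinocyte markers was higher, and 2 mast cell markers of 7 and 2 lymph node markers of 5 tested were higher with as many lower. At 1 mg against syngeneic mAb (7.99% of all genes higher, 28.3% lower), 4 macrophage, 4 keratinocyte and 3 mast cell markers were higher and 0 lower. There 0 skeletal muscle markers were called, and of the dendritic and the lymph node markers 1 each was higher and 2 each lower. The mitochondrial share of TPM was 2.35 to 3.32% in Scl-cGVHD IgG mice, against 6.37 to 7.38% in syngeneic IgG mice. The part of these differences in the member values was not tested.

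Over the 11 Scl-cGVHD mice, the members differed in how closely they followed the mean of the CD3 chains. The Pearson r of log2(TPM + 1) with that mean, which holds the CD3 chains themselves, was 0.94 to 0.98 for these, 0.95 for Cd2, 0.88 for Lck and 0.80 for Cd5, but 0.58 for Il2ra, 0.54 for Cd4, 0.48 for Foxp3 and -0.06 for Thy1. The 10 other genes most like the CD3 mean were Ptprcap, Sh2d1a, Cd6, Ms4a4b, Il27ra, Tbx21, Cst7, Cd8b1, Klrd1 and Nkg7, with r of 0.90 to 0.95. In pairs, Cd3e had r = 0.96 with Lck and 0.96 with Cd2, while Cd4 had 0.90 with Il2ra, Il2ra 0.84 with Foxp3 and Cd4 0.81 with Foxp3. Lck was also high with Cd4 (0.82) and Il2ra (0.80), above its 0.75 with Cd3d, and Cd5 had 0.85 with Cd3d. Over the 8 syngeneic mice, where levels were low, Cd3d had r = 0.90 with Cd4 and Cd5 0.85 with Lck, but Cd3g -0.39 with Lck. These values are descriptions over mice that share a scaling and a treatment mix, and mice low in most of the members such as ID_1546 enter each of them.

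**Figure D5:**
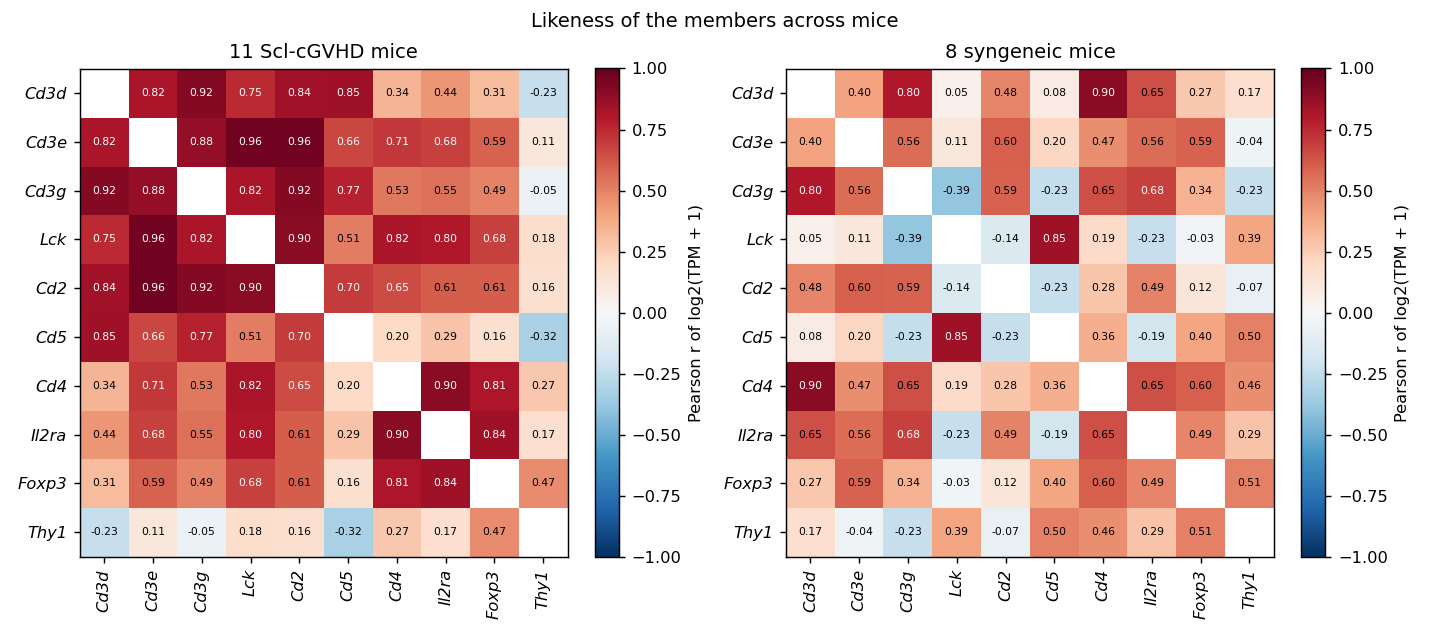
Pearson r of log2(TPM + 1) for each pair of the 10 members over the 11 Scl-cGVHD mice and over the 8 syngeneic mice. In Scl-cGVHD mice the pairs among Cd3d, Cd3e, Cd3g and Cd2 have r of 0.82 to 0.96 and those among Cd4, Il2ra and Foxp3 0.81 to 0.90, Lck is high with genes of both (0.96 with Cd3e, 0.82 with Cd4), and Thy1 is at most 0.47 with any member.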

How the data were processed

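Poly(A) RNA of whole skin was made into strand-specific libraries and sequenced as read pairs. Per the labels and the study's methods, the authors used Trimmomatic and FastQC on the reads, STAR 2.5.2b for alignment (GRCm38, Ensembl genes) and deposited gene TPM estimated by RSEM 1.2.31. TPM carries no depth, so counts were not tested. Levels were compared as log2(TPM + 1) with limma 3.58.1 (R 4.3.3; trend and robust), with all 5 groups in 1 fit, a filter of 1 TPM in 3 mice, and p adjusted by Benjamini-Hochberg over 16350 genes within each of 9 comparisons; adjusted p under 0.05 was a call. Ratios to Cd3e used a pseudocount of 0.1 and exact permutation tests, which were two-sided. The members and lists were chosen with earlier results of these data known. Named were all members, up to 4 genes a list with the smallest p between the IgG groups, and the 10 genes most like the CD3 mean. Numbered gene models and receptor segments were passed over among the latter. The collagen genes, Fyn, Lcp2, Vav1, Ptprc, Cd79a, Gata3 levels, Tcf7, Klrk1 and Ncr1 were named after their values were seen. A gene of the homing list is counted but not reported by name here. Other scalings, pseudocounts and filters, the compared groups only, and each mouse left out were tried, all checked with code tested on simulated data. Replicates are single mice.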

Additional observations from a re-analysis of the deposited data

Results flagged for a closer look

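In 20 sets of one member's values in a group of 5 mice, the highest or the lowest mouse was tested for lying far from the others, which chance does in about 1 of 20 sets, and 3 did. Foxp3 was 0.12 TPM in the 1 mg Scl-cGVHD mouse ID_1546, whose 4 group mates had 1.24 to 1.41 TPM. That mouse was also the lowest of its group for 8 other members, the exception being Cd5. In the mAb-treated syngeneic mouse ID_1534, Cd5 was 2.17 TPM (the other 4 mice 1.52 to 1.63 TPM) and Thy1 was 284.26 TPM (the other 4 mice 179.45 to 193.05 TPM).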

How the results depend on the processing

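Between the IgG groups 4 members were called, and 7 with median-ratio factors, 7 with trimmed-mean factors, 8 with quantile normalization and 3 with the compared groups only, where Cd3e and Cd2 were lost and Cd4 gained. The calls added by scaling were Cd3g, Cd4 and Cd5, with Thy1 under quantile normalization. Between the 1 mg and syngeneic mAb groups 6 were called, 8 with median-ratio factors, 8 with trimmed-mean factors, 9 with quantile normalization and 3 without the 3 mice that stood apart. Leaving out 1 mouse at a time gave 2 to 6 calls between the IgG groups, 4 to 8 at 1 mg against syngeneic mAb, 8 to 9 over all mice and 3 to 5 for the ratios to Cd3e. For mAb against IgG, 0 members and 0 ratios to Cd3e were called in every alternative run. The Foxp3 ratio to Cd4 (0.71, exact permutation, adjusted over only 2 ratios p = 0.0485) used a denominator chosen after seeing the data. It was not repeated with mice left out or with another pseudocount, so its stability is unknown. The planned ratio to Cd3e had an adjusted p of 0.109 in the exact permutation test.

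Directions turned for values near 0. Foxp3 at 1 mg against syngeneic mAb was 0.0546 with median-ratio factors, 0.0563 with trimmed-mean factors and 0.16 with quantile normalization, and -0.20 to 0.11 with 1 mouse left out. Il2ra for both doses against IgG was -0.0752 without the 3 mice and -0.20 to 0.15 with 1 mouse left out. Over all mice, with a pseudocount of 1, the Cd3g ratio to Cd3e was 0.0446 and the Cd4 ratio -0.0249; with 1 mouse left out the Cd3g ratio was -0.11 to 0.0612. With 1 mouse left out, the difference for both doses against IgG was -1.01 to 0.17 for Cd2, -0.84 to 0.15 for Cd3g, -0.34 to 0.0508 for Cd4, -0.51 to 0.17 for Cd5 and -0.18 to 0.31 for Thy1, and the ratio to Cd3e -0.0112 to 0.28 for Cd2, -0.0899 to 0.17 for Cd3d and -0.0926 to 0.14 for Lck. Between the IgG groups the Cd4 ratio was -0.55 to 0.0236. Apart from left-out mice, 316 values of single members kept direction and side of the threshold, 10 lost it, 32 gained it and 6 reversed. These counts hold each Foxp3 and Il2ra ratio to Cd4 in duplicate, although it is a different ratio from that to Cd3e. Beyond fewer mice, the cause of the changes was not tested. No paired analysis was possible because the mouse numbers are unique. With 3 mice in each IgG group, a permutation test cannot go below p = 0.1, and depth limits the members near 1 TPM.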
